A study of Caenorhabditis elegans with 5 samples.

Results

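Fed animals with a germline tumour were set against animals with a normal germline, as 2 of the 5 RNA-seq libraries of a study of whole Caenorhabditis elegans hermaphrodites. The fed tumour library came from gld-1 RNAi animals that were taken from the RNAi food on day 2 of adulthood, spent 48 h on L4440 bacteria and were collected on day 4. The control library came from animals collected on day 3 that had eaten only L4440 bacteria, whose RNAi vector is empty. All groups were kept at 20 °C and grown from synchronized L1 larvae, and no strain is named in the labels. About 3000 animals, taken from 2 experiments, were pooled for each library. Neither library has a replicate, so no test between groups was possible, and the spread between pools is unknown. The other 3 libraries were gld-1 RNAi animals of day 3, gld-1 RNAi animals moved to plates without food on day 2 and collected on day 4 (fasted), and young adults on L4440 of day 1. The labels do not settle how long the RNAi lasted: the growth protocol places larvae on the RNAi food, whereas the text for the day 3 gld-1 RNAi library has the animals moved to it after day 1 of adulthood. RNAi by feeding acts in the whole animal, and the labels give no count of animals that carried a tumour.

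GLD-1 is an RNA-binding protein that represses the translation of many germline mRNAs and is needed for germ cells to complete meiosis and become oocytes. Without it, germ cells that have entered meiosis divide again by mitosis and form a tumour in the gonad, and few or no oocytes and embryos form. In hermaphrodites GLD-1 also represses tra-2 and so allows sperm to form in larvae. In the same animals the intestine makes yolk for the oocytes, which take it up through the receptor RME-2.

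No deposited table holds the fed tumour and the control library together. Both were placed on 1 scale through the day 3 gld-1 RNAi library, which stands beside each of them in 1 table, with a constant of 0.986. The day 3 gld-1 RNAi library thus sets the scale and is not a side of the comparison. The fed tumour library held 27469984 reads in genes and the control library 27547808, with 27.3% and 27.8% of them in ribosomal RNA. The young adult library held 15426039 reads, with only 3.51% of them in ribosomal RNA. How far this difference enters the values set against young adults was not tested. Of 45461 listed genes, 9765 had a mean of at least 50 normalized reads over both libraries and are called measured. Log2 folds are of fed tumour over control, each value plus 1, so a positive fold means higher in the fed tumour library. Counting intervals are exact 95% intervals of the ratio of reads and cover counting error only. They reach 0.41 on either side of a log2 ratio at 100 reads in each library, 0.13 at 1000 and 0.04 at 10000.

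The median log2 fold of the measured genes was -0.12, with 25% of genes below -0.56 and 25% above 0.38. At least 2-fold higher were 1019 genes (10.4% of those measured) and at least 2-fold lower 1079 (11%). Past 1.5-fold were 18.3% on the higher and 23.9% on the lower side, and past 4-fold 2.82% and 2.24%. These shares are the background against which the counts of each gene group are read. The split depended on the scale: with equal upper quartiles it was 1378 higher and 796 lower, and the median of all genes was 0.07. Age, the change of food and the tumour differ together between these libraries and cannot be told apart.

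**Figure D1:**
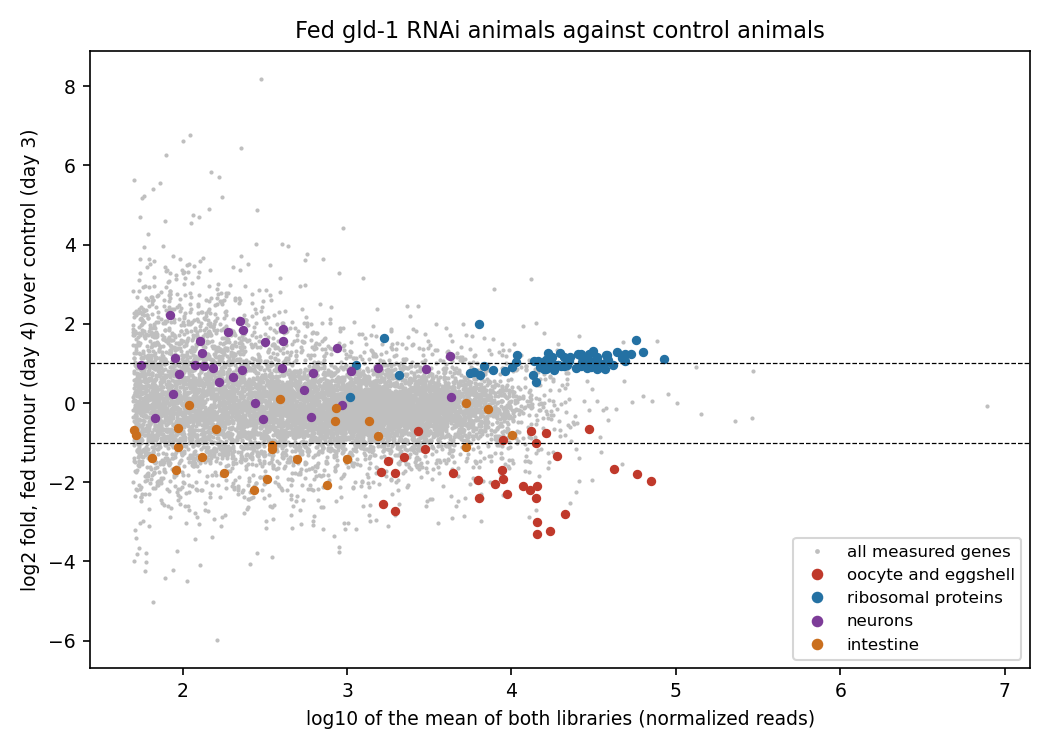
Log2 fold of fed tumour (day 4) over control (day 3) against the log10 of the mean of both libraries in normalized reads, 1 point per measured gene, with dashed lines at 2-fold. The oocyte and eggshell genes (red) all lie below 0 and the ribosomal proteins (blue) all above it, while neuronal genes (purple) lie mostly above 0 and intestinal genes (orange) mostly below.

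The RNAi target was lower in the fed tumour library, 2 days after RNAi feeding had ended. For gld-1 (T23G11.3), fed tumour animals had 3753 normalized reads and controls 24395, a log2 fold of -2.70 (counting interval -2.75 to -2.65). In the remaining libraries it stood at 1951 in fasted and 2482 in day 3 gld-1 RNAi animals, and at 20243 in young adults. The 3 RNAi libraries lie together far below the 2 libraries on L4440 alone, as their labels have it.

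Genes that oocytes use were lower as a whole group. All 32 listed genes of oocyte growth, eggshell and the oocyte-to-embryo transition were measured, and 32 of 32 were at least 1.5-fold and 26 at least 2-fold lower, against the 23.9% and 11% of all genes above. Their median log2 fold was -1.86 and their range -3.31 to -0.65. Summed, they took 10.3 of every 1000 reads outside rRNA in fed tumour animals and 34.2 in controls. In whole animals, fewer oocytes and less RNA per oocyte cannot be told apart.

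The eggshell proteoglycan gene cpg-3 (R06C7.4) was the lowest of them, with 2619 normalized reads in fed tumour animals and 26069.9 in controls (log2 fold -3.31, counting interval -3.37 to -3.26). puf-5 (F54C9.8), a Pumilio-family repressor of translation in oocytes, had 3284 and 30781 (-3.23). egg-1 (B0244.8), an oocyte surface protein needed for fertilization, had 3169.6 and 25367 (-3.0). rme-2 (T11F8.3), the receptor for yolk, had 5278 in fed tumour animals and 37127 in controls (-2.81). Each of these 4 genes was higher in the fasted than in the fed tumour library: cpg-3 stood at 5674 in fasted animals, puf-5 at 6834, egg-1 at 6671 and rme-2 at 11863. Genes whose mRNA waits in the oocyte for the embryo were lower too. Log2 folds were -2.54 for nos-2, a Nanos homologue of the primordial germ cells, -2.40 for pos-1 and -2.09 for spn-4, both RNA-binding proteins of the early embryo. The paralogues oma-1 (-1.93) and oma-2 (-2.09), which drive oocyte maturation, had close folds. The group's 4 smallest differences were in perm-4 (23048 and 36184 normalized reads, -0.65) and perm-2 (11996 and 20206, -0.75), which build the eggshell's permeability barrier, in pie-1 (2059.8 and 3345, -0.70), which keeps germline blastomeres silent, and in the kinase gene mbk-2 (9987 and 16226, -0.70), which acts at the oocyte-to-embryo transition. lin-41 (-0.93) and mex-3 (-1.0) also lay among the smaller folds. In the day 3 gld-1 RNAi library the median of these genes over the same control was -1.53, a value that shares the control library. In controls of day 3 they were higher than in young adults of day 1 (median log2 fold 1.43).

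Genes that are first transcribed in embryos were lower as well. Summed over the 29 that could be matched, they took 0.05 of every 1000 reads outside rRNA in fed tumour animals and 0.19 in controls. Of these, 10 were measured, 9 of them at least 2-fold lower (median -2.33), and most passed the minimum through the control library alone, so that this count had to fall on the lower side. The T-box paralogues tbx-38 (C24H11.3) and tbx-37 (Y47D3A.12), which act in early blastomeres, had 3.05 and 5.09 normalized reads in fed tumour animals and 129.9 and 113 in controls. Their log2 folds were -5.01 (counting interval -7.71 to -3.83) and -4.23 (-6.13 to -3.21). vet-6 (F44F1.7), a very early embryonic transcript, had 37.7 and 528 (-3.77), and sdz-28 (R52.1), a zygotic target of the embryonic factor SKN-1, had 25.5 and 276 (-3.39). All 4 were low in the day 3 gld-1 RNAi, the fasted and the young adult library as well, so that the control library of day 3 stands alone at the high level. sepa-1 (M01E5.6), an autophagy adaptor of the embryo, had the same shape, with 111 normalized reads in fed tumour animals and 935 in controls (-3.06), against 8.91 in young adults.

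**Figure D2:**
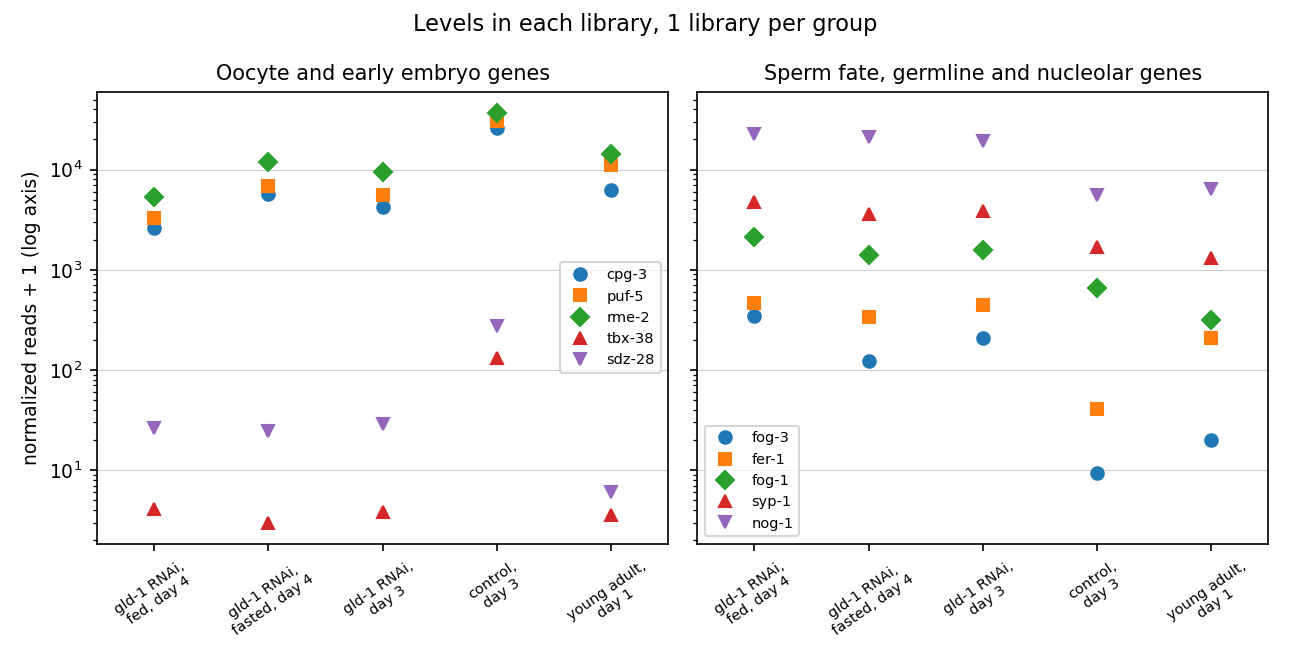
Normalized reads plus 1 (log axis) of 10 oocyte, early embryo, sperm, germline and nucleolar genes in each of the 5 libraries. There is 1 point per gene and library, with the fed tumour library at the left. Oocyte genes are lowest in the fed tumour library, tbx-38 and sdz-28 are high in the control library alone, and fog-3 has 341 normalized reads in fed tumour animals against 8.38 in controls.

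Genes of the germline outside the oocyte differed in both directions. Over 15 genes of germline stem cell fate the median was -0.28, with 2 at least 1.5-fold higher and 5 lower. fbf-1 (H12I13.4) and fbf-2 (F21H12.5), paired Pumilio-family proteins that keep stem cells from differentiating, were higher, with 2403 and 1516 normalized reads in fed tumour animals and 851 and 684 in controls (1.5 and 1.15). The Notch receptor glp-1 (F02A9.6), which holds germ cells in mitosis, had 7829.7 and 10927 (-0.48). Its direct targets lst-1 (-0.94) and sygl-1 (-1.24) were lower, and so was the phosphatase gene lip-1 (-1.63).

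Meiosis genes had a median of 0.08 over 32 genes, with 8 at least 1.5-fold higher and 2 lower. The furthest was syp-1 (F26D2.2), of the synaptonemal complex, with 4724 normalized reads in fed tumour animals and 1703 in controls (1.47). The meiotic cohesins coh-4 (1.33) and rec-8 (1.09), the axis protein gene htp-2 (1.1) and the meiotic kinase gene chk-2 (1.1) were at least 2-fold higher too. lab-1 (-1.81), which protects cohesion between sister chromatids, lay on the other side. Genes of P granules and germline small RNAs had a median of -0.07 over 22 genes, which turned above 0 with equal upper quartiles, and held opposite members. The helicase gene glh-1 (T21G5.3) had 39383 normalized reads in fed tumour animals and 12123 in controls (1.70), and the piRNA Argonaute gene prg-1 (D2030.6) had 28177 and 10069.9 (1.48). pgl-1 (ZK381.4), the scaffold of P granules, had 15059 and 14151 (0.09). meg-3 (-2.0), which acts on P granules in embryos, the Argonaute wago-1 (-1.25) and the oocyte-rich helicase cgh-1 (-1.24) were at least 2-fold lower.

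Of the 49 genes of DNA replication and mitosis, 0 were at least 1.5-fold higher and 21 were lower, 8 of them at least 2-fold (median -0.37). The list took 10.9 of every 1000 reads outside rRNA in fed tumour animals and 16 in controls. Cyclin B3, cyb-3 (T06E6.2), had 6362 normalized reads in fed tumour animals and 22903 in controls (-1.85), and rnr-2 (C03C10.3), a subunit of ribonucleotide reductase, had 6811 and 19006 (-1.48). The replicative helicase subunit mcm-7 (-1.33) and the cyclin-dependent kinase cdk-1 (-1.04) were lower as well, whereas cdk-2 was the highest of the list at 0.29. Many of these mRNAs are also stored in oocytes, and the part of oocytes in this difference was not tested. Histone genes had a median of 0.04 over 29 measured of 72, and near-identical copies may share or lose reads.

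Sperm genes gave the opposite picture to oocyte genes, at low levels. Over all 25 listed genes of sperm fate, spermatogenesis and sperm function, the share was 0.88 per 1000 reads outside rRNA in fed tumour animals and 0.52 in controls. Of these, 10 were measured, 7 of them at least 1.5-fold higher and 1 lower (median 1.45), though genes that are low in controls were measured only where they are high in fed tumour animals. fog-3 (C03C11.2), needed for germ cells to enter the sperm fate, had 341 normalized reads in fed tumour animals and 8.38, from 8 reads, in controls (5.19, counting interval 4.35 to 6.57). fog-1 (Y54E10A.4), its partner in that choice, had 2141 and 654 (1.71). fer-1 (F43G9.6), a membrane fusion protein of spermatids, had 462 and 39.8 (3.5). The unconventional myosin gene spe-15 (F47G6.4) had 1346 and 248 (2.43), and spe-41 (K01A11.4), a calcium channel gene of sperm, had 261 and 54.5 (2.24). tra-2 (C15F1.3), a target of GLD-1 repression, had 1611 and 2448 (-0.60). None of the 31 major sperm protein genes was measured: summed, they held 188 reads in fed tumour animals and 9 in controls, against 15948 in young adults. snpc-1.3 (F08F3.9), a subunit for transcribing male piRNAs in the germline, had 626 and 55.5 normalized reads (3.47). Among 21 genes of germ cell death and the DNA damage checkpoint (median -0.09, above 0 with equal upper quartiles), egl-1 (F23B12.9), the trigger of apoptosis, stood out with 180.2 normalized reads in fed tumour animals and 16.8 in controls (3.35).

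Genes of the ribosome and of ribosome biogenesis were higher, whereas translation factors and tRNA synthetases as lists lay near 0. Of 79 measured cytosolic ribosomal protein genes, 77 were at least 1.5-fold and 44 at least 2-fold higher, against 18.3% and 10.4% of all genes, and 79 lay above 0 (median 1.04, range 0.15 to 1.99). They took 131 of every 1000 reads outside rRNA in fed tumour animals and 60.5 in controls. In young adults, whose library held few rRNA reads (3.51%), that share was 117, so that the control library has the lowest of the 5. The median over the same control was 0.81 in the day 3 gld-1 RNAi library, and controls stood below young adults by a median of -0.86. The furthest gene was rpl-11.2 (F07D10.1), with 10196 normalized reads in fed tumour animals and 2566 in controls (1.99, counting interval 1.93 to 2.05). Its paralogue rpl-11.1 (T22F3.4) had 44739 and 17873 (1.32). rla-0 (F25H2.10), of the ribosomal stalk, had 85750.1 and 28405 (1.59).

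The nucleolar list, with genes for building ribosomes, had a median of 0.75 over 24 genes, with 16 at least 1.5-fold higher and 1 lower. The GTPase gene nog-1 (T07A9.9), which matures the large subunit, had 22422 normalized reads in fed tumour animals and 5576 in controls (2.01). lpd-7 (R13A5.12), a homologue of the nucleolar protein pescadillo, had 18754 and 4908 (1.93), and rpoa-1 (Y48E1A.1), a subunit of RNA polymerase I, had 11610.2 and 3768 (1.62). exos-3 (-0.87), an exosome subunit, was the lowest. Translation factors had a median of 0.11 over 30 genes, 4 of them at least 1.5-fold higher, a smaller share than the 18.3% of all genes, and 0 lower. Those 4 included the elongation factor genes eef-1A.2 (1.78), eef-1A.1 (0.80) and eef-2 (0.92), and in reads the factors together took 37.8 per 1000 in fed tumour animals and 22.8 in controls. The 20 cytosolic tRNA synthetase genes had a median of 0.09, with 2 at least 1.5-fold higher, also below that share.

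**Figure D3:**
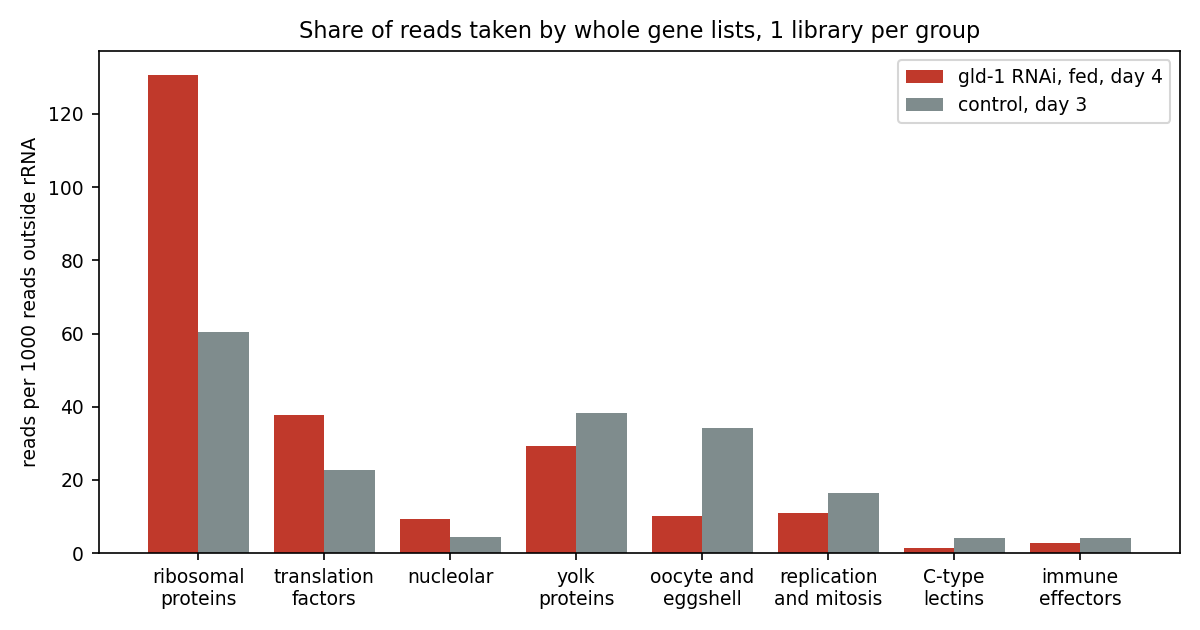
Reads per 1000 reads outside rRNA taken by 8 whole gene lists, summed over all matched members, in the fed tumour (left bar) and control (right bar) library, with 1 library per group and no error bar. Ribosomal proteins take 131 in fed tumour animals and 60.5 in controls, and oocyte and eggshell genes 10.3 and 34.2.

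Somatic tissues differed in opposite directions. Most listed markers of neurons, muscle, pharynx, intestine and hypodermis had reads in both libraries, except hlh-1 of muscle, listed at 0 in both, and abu-6 of the pharynx and bli-2 of the hypodermis, listed at 0 in controls. Neuronal genes were higher: of 33 measured of 41 matched, 24 were at least 1.5-fold higher and 0 lower (median 0.89). unc-10 (T10A3.1), of the presynaptic active zone, had 359 normalized reads in fed tumour animals and 84.9 in controls (2.07). syd-1 (F35D2.5), which assembles presynaptic sites, had 139 and 29.3 (2.21), and the calcium channel gene unc-2 (T02C5.5) had 636 and 175 (1.86). The touch neuron tubulin gene mec-7 (ZK154.3) had 366 and 101 (1.85). Some genes of all neurons had small folds: unc-119 (M142.1) had 276 and 277 (counting interval -0.25 to 0.25), and the synaptobrevin gene snb-1 (T10H9.4) had 4484 and 4060.0 (0.14). Neuronal genes over the same control had a median of 0.94 in the day 3 gld-1 RNAi library, and controls stood below young adults by a median of -0.97. Neuropeptide genes had a median of 0.15 over 51 measured of 143, with 14 at least 1.5-fold higher and 4 lower, and turned below 0 at a minimum mean of 200.

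Intestinal genes were lower. Of 26 measured, 19 were lower by at least 1.5-fold and 0 higher (median -0.95). The lowest was the efflux pump gene pgp-1 (K08E7.9), with 96.7 normalized reads in fed tumour animals and 443 in controls (-2.18). The metallothionein genes mtl-1 (K11G9.6, 289 and 1214, -2.07) and mtl-2 (T08G5.10, 136 and 519, -1.92) were lower as well. elt-2 (C33D3.1), the transcription factor of intestinal identity, had 73.3 and 113 (-0.62, counting interval -1.08 to -0.18), and the esterase gene ges-1 (R12A1.4) had 269 and 719.8 (-1.42). Pharynx genes had a median of -0.71 over 9 measured of 19, with the troponin genes tnt-4 (-1.02) and tni-4 (-0.88) below 0 and the pharyngeal myosin myo-2 (0.50) above it. Body wall muscle genes had a median of 0.16 over 31 genes, 8 at least 1.5-fold higher and 2 lower, with the integrin subunit pat-2 (1.64) highest and the myosin genes myo-3 (0.73) and unc-54 (0.40) above 0. Hypodermal genes other than the col family had a median of 0.26 over 18 measured, below 0 at a minimum mean of 200. Among them, the cuticle collagens dpy-2 (1.03) and dpy-17 (0.92) and the nuclear receptor nhr-25 (0.94) were highest. Somatic gonad genes had a median of -0.31 over 11 genes, with members on either side of 0, from lag-2 (-1.70) to fln-1 (0.85). The gonadal sheath markers lim-7 (0.45) and ceh-18 (0.26) lay above 0, with counting intervals that reach below it. Of the 3 measured coelomocyte genes, cup-5 (-0.92) and cup-2 (-0.88) were lower. The third, cup-4, was near equal (-0.02, counting interval -0.54 to 0.51). unc-122 (0.47) and lgc-26 (0.71) of the same list lay above 0 but under the minimum mean.

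**Figure D4:**
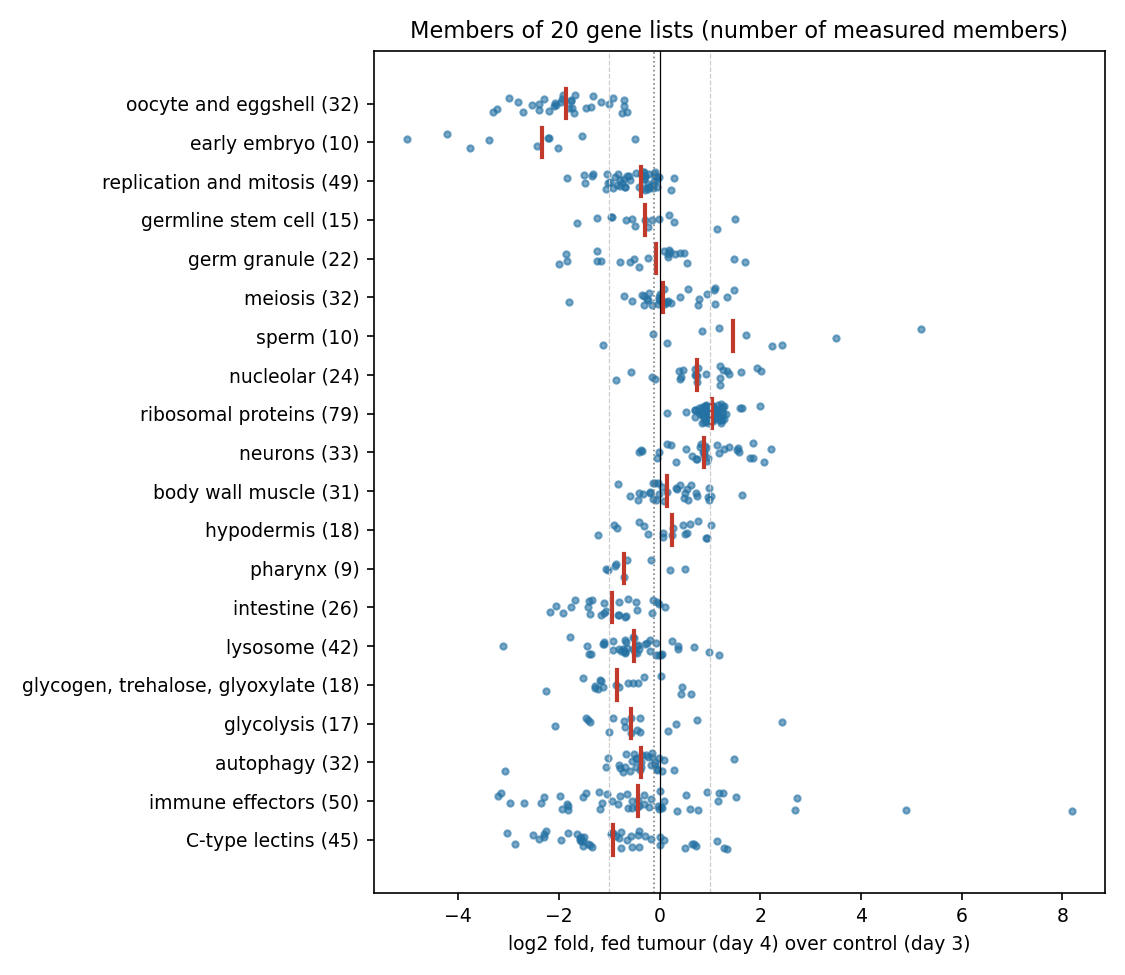
Log2 fold of fed tumour (day 4) over control (day 3) for the measured members of 20 gene lists, with 1 blue point per gene, a red bar at each list's median, a dotted line at the median of all measured genes (-0.12) and dashed lines at 2-fold. Sperm genes have the highest median, but those low in controls were measured only where they are high in fed tumour animals. Ribosomal proteins (median 1.04) and neuronal genes (0.89) come next, and oocyte genes (-1.86) lie near the other end. Most embryonic genes shown were measured through the control library alone and had to lie low.

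The 6 yolk protein genes, which the intestine transcribes, all lay below 0 (median -0.67), with 3 of them at least 1.5-fold lower. Together they took 29.3 of every 1000 reads outside rRNA in fed tumour animals and 38.2 in controls. vit-3 (F59D8.1) had 6686 normalized reads in fed tumour animals and 18581 in controls (-1.47), vit-1 (K09F5.2) had 7933 and 16156 (-1.03), and vit-4 (F59D8.2) had 7429.6 and 13762 (-0.89). The abundant vit-2 (C42D8.2) had 193129 and 263306 (-0.45), and the near-identical copies among these genes may share reads. The difference was thus smaller for yolk genes than for rme-2. Cuticle collagens of the col family were mostly lower where measured (49 of 156): 33 lay at least 1.5-fold below and 4 above controls (median -0.91). col-165 (F14H12.1) had 4.07 and 319 normalized reads (-5.98, counting interval -8.17 to -4.92), the lowest fold of all named genes with a mean of at least 100. It was at 9.54 in day 3 gld-1 RNAi animals and listed at 0 in young adults, so the control library stands alone here too.

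Genes of sugar storage and breakdown were lower, with exceptions. Gluconeogenesis, glyoxylate, glycogen and trehalose genes had a median of -0.84 over 18 genes, 11 of them at least 1.5-fold lower and 1 higher. The glycogen phosphorylase gene pygl-1 (T22F3.3) had 8531 normalized reads in fed tumour animals and 40565 in controls (-2.25), and glycogen synthase, gsy-1 (Y46G5A.31), had 2854 and 6919 (-1.28). icl-1 (C05E4.9), the enzyme of the glyoxylate cycle, was the one that was higher, with 7177 and 4674 (0.62). Glycolysis genes had a median of -0.58 over 17 genes, with 8 at least 1.5-fold lower and 2 higher. gpd-1 (T09F3.3), a glyceraldehyde-phosphate dehydrogenase, had 1466 and 6227 (-2.09). The 2 aldolase genes went opposite ways: aldo-2 (F01F1.12) had 6454 in fed tumour animals and 17729.9 in controls (-1.46), while aldo-1 (T05D4.1) had 3890.4 and 718 (2.44).

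The genes of mitochondrial energy production stayed near the median of all genes. Medians were -0.03 for 24 genes of the tricarboxylic acid cycle, which turned above 0 under 3 other scalings, and -0.06 for 34 nuclear respiratory chain genes and -0.08 for 8 genes of the mitochondrial genome, both of which turned above 0 with equal upper quartiles. Of the respiratory chain genes, 3 were at least 1.5-fold higher and 1 lower. Mitochondrial beta oxidation genes had a median of -0.34 over 26 genes, in which acdh-1 (C55B7.4), an acyl-CoA dehydrogenase, had 842 and 3224 normalized reads (-1.94). Peroxisomal genes had a median of -0.07, above 0 with equal upper quartiles and at a minimum mean of 200. Fatty acid synthesis genes had a median of -0.33 over 17 genes, with the desaturase fat-6 (VZK822L.1) at 3594 and 6457 (-0.85) and its near-identical paralogue fat-7 listed at 0 in all 5 libraries. Lipase genes had a median of -0.42 over 9 measured of 26. lipl-2 (F46B6.8, 29.5 and 185, -2.61) and lipl-1 (F54F3.3, 33.6 and 135, -1.98) were the lowest, and lipl-4 was under the minimum mean, at 20 and 25 normalized reads.

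Degradation pathways lay below 0 by smaller steps. Lysosomal and vacuolar ATPase genes had a median of -0.51 over 42 genes, with 19 at least 1.5-fold lower and 3 higher. gba-4 (Y4C6B.6), a glucocerebrosidase family member, was the lowest, at 34.6 normalized reads in fed tumour animals and 307 in controls (-3.11). Of the 33 proteasome subunit genes, 32 lay below 0 (median -0.47), yet 9 were at least 1.5-fold and 0 at least 2-fold lower. Autophagy genes had a median of -0.36 over 32 genes, 9 of them at least 1.5-fold lower and 1 higher. For proteasome and autophagy genes, the shares at least 1.5-fold lower lie near the 23.9% of all genes. Members of the core autophagy machinery ranged widely. atg-16.1 (-1.06), lgg-3 (-0.81) and atg-16.2 (-0.67), of the conjugation system that lipidates LGG-1, and atg-18 (-0.78), which binds phosphoinositides, were at least 1.5-fold lower. Of the autophagy genes chosen in advance, sepa-1 was far lower (-3.06) and the others lay near 0. lgg-1 (C32D5.9) had 5381 and 5989 (-0.15), bec-1 (T19E7.3) 1138 and 1103 (0.05), and the lysosomal regulator hlh-30 (W02C12.3) 1338 and 1253 (0.09). Near 0 too was unc-51 (Y60A3A.1), not chosen in advance, with 1358 and 1412 (-0.06). Among cargo adaptors, sqst-1 (T12G3.1) was higher, with 3638 normalized reads in fed tumour animals and 1311 in controls (1.47), while sepa-1 and epg-2 (-1.02), both for embryonic cargo, were lower. Cathepsin genes had a median of -0.67 over 18 genes, with the aspartyl proteases asp-13 (-1.99) and asp-2 (-1.77) lowest and the cathepsin B-like cpr-5 (1.36) highest.

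Nutrient-sensing genes of the insulin and TOR pathways had a median of -0.14 over 32 genes, which turned above 0 with equal upper quartiles. The FOXO factor daf-16 (R13H8.1) had 5533 normalized reads in fed tumour animals and 3975 in controls (0.48), the fasting-linked receptor nhr-49 (K10C3.6) had 2492 and 2182 (0.19), and the AMP kinase subunit aak-2 (T01C8.1) had 743 and 1461 (-0.97).

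Immune effector genes held both the highest and some of the lowest folds. Of 50 measured of 88, 11 were at least 1.5-fold higher and 22 lower (median -0.44). The saposin-like genes spp-9 (T25C12.2) and spp-12 (T22G5.7) had 595 and 280.0 normalized reads in fed tumour animals. In controls they had 1.05, from 1 read, and 8.38 from 8 reads. The log2 folds were 8.18 (counting interval 6.66 to 14.45) and 4.90 (4.06 to 6.29). The invertebrate lysozymes ilys-3 (C45G7.3, 593 and 88.0, 2.74) and ilys-2 (C45G7.2, 194 and 29.3, 2.69) were higher too. On the other side, the lysozyme lys-4 (F58B3.1) had 136 normalized reads in fed tumour animals and 893 in controls (-2.70), dod-24 (C32H11.12) 92.7 and 833 (-3.15), and the flavin monooxygenase fmo-2 (K08C7.5) 9.16 and 93.2 (-3.21). C-type lectins had a median of -0.93 over 45 measured of 240, with 28 at least 1.5-fold lower and 6 higher. clec-91 (ZK858.3) had 777 and 6363 (-3.03), and the abundant clec-87 (C25A1.8) had 6722 and 38370.4 (-2.51). Of the pals family, 8 of 37 genes were measured (median 0.94), among them pals-27 (B0284.2) with 292 normalized reads in fed tumour animals and 4.19, from 4 reads, in controls (5.82). Members of this family that are low in controls were measured only where they are high in fed tumour animals. This bears on the median of 0.94, which is thus no measure of the whole family. Of the members named here, pals-27 and pals-38 (107 and 3.14, 4.70) passed the minimum mean through the fed tumour library alone. pals-24 (57.0 and 173, -1.58) and pals-23 (61.1 and 176, -1.51) went the other way. Detoxification genes had a median of -0.49 over 82 measured of 185, 12 at least 1.5-fold higher and 35 lower, with the cytochrome P450 cyp-14A3 (K09A11.4, 197 and 16.8, 3.47) highest and the glucuronosyltransferase ugt-32 (F47C10.6, 28.5 and 178, -2.60) lowest.

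Other gene families split. Hedgehog-related and patched-related genes had a median of 0.69 over 28 measured of 85, with 15 at least 1.5-fold higher and 6 lower. Over the other scalings, minimum means and pseudocounts this median ranged from 0.08 to 0.73. Of the members named next, ptr-10 and ptr-4 passed the minimum mean through the fed tumour library alone. ptr-10 (F55F8.1) had 216 and 18.9 normalized reads (3.45) and ptr-4 (C45B2.7) 238 and 47.1 (2.31), both patched-related proteins, while the patched homologue ptc-1 (ZK675.1), which acts in the germline, had 9823 in fed tumour animals and 23662 in controls (-1.27). Tubulin genes had a median of 0.09 over 12 genes, and the divergent beta-tubulin tbb-6 (T04H1.9) had 1803 and 83.8 (4.41), whereas tbb-1 (K01G5.7) had 9304 and 20959 (-1.17). F-box and SCF adaptor genes had a median of -0.09 over 75 measured of 342, above 0 with equal upper quartiles and at a minimum mean of 200, with fbxa-94 (F28F8.8, 218 and 8.38, 4.54) high and the Skp1-related skr-9 (C52D10.7, 19.3 and 218, -3.43) low. Nuclear receptor genes had a median of -0.02 over 86 measured of 269, which turned above 0 with equal totals, with equal upper quartiles and at a minimum mean of 200. The other genes with the highest named folds were icmt-1 (F21F3.3, 326 and 5.24, 5.71), a methyltransferase of prenylated proteins, and ddn-1 (B0507.10, 236 and 18.9, 3.58). The other lowest were dct-17 (F35E12.7, 13.2 and 241, -4.09), the trypsin-like try-1 (ZK546.15, 223 and 2042, -3.19) and fbxc-32 (C32B5.10, 64.1 and 576, -3.15).

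Of the heat-inducible chaperone genes, 3 were higher than controls in the fed tumour library and near the control level in day 3 gld-1 RNAi animals. The rule asked for genes at least 2-fold from the control in fed tumour animals. In day 3 gld-1 RNAi animals they had to lie less than 0.32 from it on the log2 scale. Only named genes averaging 100 or more normalized reads over both libraries were searched. Of those, 6 met the rule, 4 higher and 2 lower, and the remaining measured genes were not counted. Since the rule used these values, they are a description. The small heat shock protein gene hsp-16.2 (Y46H3A.3) had 215 normalized reads in fed tumour animals and 43 in controls (2.30, counting interval 1.83 to 2.84), with 53.4 in day 3 gld-1 RNAi and 133 in fasted animals. The inducible chaperone gene hsp-70 (C12C8.1) had 615 and 163 (1.91), with 167 in day 3 gld-1 RNAi and 311 in fasted animals. hsp-16.41 (Y46H3A.2) had 209.7 and 73.3 (1.5), with 63.0 in day 3 gld-1 RNAi and 165 in fasted animals. All 3 were thus higher in both day 4 libraries than in both day 3 libraries. The 2 day 4 libraries differ from the day 3 ones in age and in a transfer between plates on day 2, and which of these goes with the difference was not tested.

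The rest of the heat shock list was named after its values were seen. hsp-16.1 (T27E4.2) had 407 normalized reads in fed tumour animals and 38.8 in controls (3.36), and F44E5.4, an hsp-70 family gene, had 448 and 4.19, from 4 reads (6.43, counting interval 5.37 to 8.62). Both were also higher in the fasted library, at 282 and 337, than in the day 3 gld-1 RNAi library, at 114 and 94.5, where both already lay above controls. A near-identical copy of each, T27E4.8 and F44E5.5, is listed at 0 in every library, so the reads of a pair may stand under 1 name. The constitutive chaperones were close to equal: hsp-1 (F26D10.3) had 73488 and 70393 (0.06) and hsp-90 (C47E8.5) 96339 and 82728 (0.22). The heat shock factor hsf-1 (Y53C10A.12) had 2935 and 3250.1 (-0.15). sip-1 (F43D9.4), a small heat shock protein of oocytes and embryos, was lower, with 23890.3 normalized reads in fed tumour animals and 69563 in controls (-1.54). Over 16 measured genes the median was 0.09, with 6 at least 1.5-fold higher and 1 lower, and it turned below 0 at a minimum mean of 200. Among the higher ones, hsp-16.2, hsp-16.1 and F44E5.4 passed the minimum mean through the fed tumour library alone, so that they had to fall on the higher side. Chaperones and stress genes of other compartments had medians close to that of all measured genes (-0.12). They were -0.23 for 21 endoplasmic reticulum genes and -0.22 for 10 mitochondrial ones. Both lists held members on either side of 0, from crt-1 (-0.97) to xbp-1 (0.52) and from haf-1 (-0.89) to timm-23 (1.56). The other 3 genes that met the rule were thn-1 (F28D1.3), a thaumatin-like gene, with 193 and 80.7 (1.3) and 2529 in fasted animals, scl-20 (ZK384.2), with 109 and 289 (-1.40), and cdr-2 (C54D10.1), a cadmium-responsive family member, with 109 and 226 (-1.05).

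**Figure D5:**
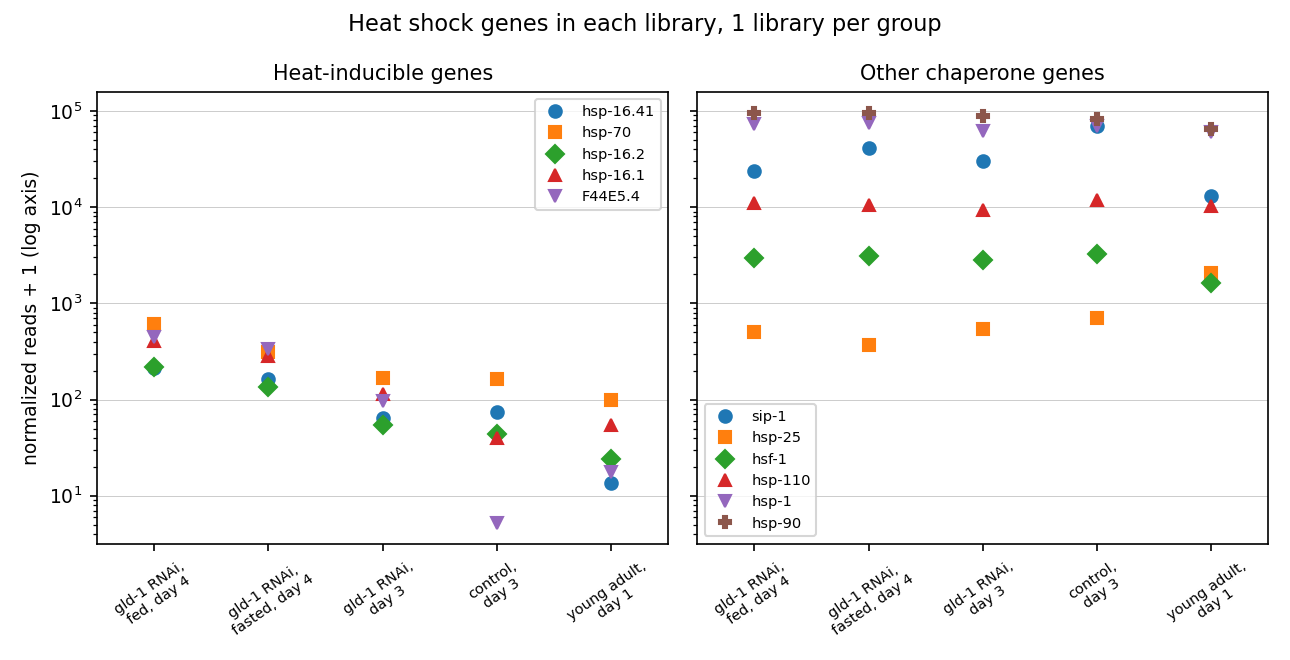
Normalized reads plus 1 (log axis) of heat-inducible (left) and other chaperone genes (right) in each of the 5 libraries, 1 point per gene and library, with the fed tumour library at the left of each panel. hsp-70 has 615 normalized reads in fed tumour animals, 311 in fasted, 167 in day 3 gld-1 RNAi and 163 in control animals, while hsp-1 and hsp-90 stay level.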

How the data were processed

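RNA was counted in 5 libraries, 1 per group, grouped by their titles. Per the submitters' processing notes, TopHat, HTSeq and DESeq were used. Versions, genome build and strand setting are not given in the sources used here. The authors deposited 5 tables of pairs of libraries with normalized signal per gene, which is the gene's count divided by a size factor set within the pair. Whole reads were recovered from the steps between low values, and 100% of values came out whole within 0.1 read. The gld-1 RNAi library links the control and the fed tumour table. Names came from the Ensembl release 115 annotation of WBcel235 and RefSeq locus tags (44936 of 45461 identifiers matched, 525 not). Log2 folds used a pseudocount of 1 and a minimum mean of 50 normalized reads. A single library stands for each group, which leaves a model no residual degrees of freedom, and no p-value or standard error is given. Intervals are Clopper-Pearson intervals.

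Gene lists (50), members and rules were chosen with earlier results of these data known. The mitochondrial genome list was taken as that genome's protein-coding genes. Named genes were gld-1, the 12 highest and 12 lowest folds above a mean of 100, the 4 leading members of any list whose median lay 0.3 or more from that of all genes, 2 genes from each of the 4 name families with the highest and the lowest medians, genes at least 2-fold from control in fed tumour animals but near it in day 3 gld-1 RNAi animals, and 19 chosen in advance. The genes near control on day 3 were likewise sought only among named genes averaging 100 or more normalized reads. Genes outside these ways of choosing were named after their values were seen. Overlapping, antisense and near-identical genes may share reads. Python 3.11.15, pandas 2.3.3, numpy 2.4.6 and scipy 1.17.1 were used, and the scripts were tested on simulated data. Alternatives were other scalings, minimum means and pseudocounts.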

Additional observations from a re-analysis of the deposited data

How the results depend on the processing

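The number of genes at least 2-fold higher (1019) and lower (1079) moved with the minimum mean: 2169 were higher at a minimum of 10 and 447 at 200, and 713 were lower at 200. Asking that the counting interval lie wholly past 2-fold left 725 higher and 719 lower. The split was 1091 to 1005 with equal totals, 1070 to 1021 without rRNA, 1050 to 1036 with size factors set on the 2 libraries directly, 972 to 1124 through the fasted library, 951 to 1020 with a pseudocount of 10 and 1026 to 1084 with 0.1. Equal upper quartiles raised the median of all genes by 0.19. That scaling adds 0.18 to the log2 fold of every gene. Among genes named by the rule, lgg-1 (0.03 with equal upper quartiles) and unc-119 (0.18) changed sign, and 13 list medians near 0 did so in at least 1 setting, while no list median past 1.5-fold did. Of the named genes, 49 moved past their counting interval with equal upper quartiles and 14 with equal totals. No paired analysis was possible because each group has 1 library, and for the same reason no replicate could be left out. At 50 reads in each library the counting interval reaches 0.60 on either side of a log2 ratio, so smaller differences of such genes were not detectable at this depth.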

Other observations

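Name families with at least 10 measured members included groups of the ubiquitin machinery that lay far apart. Of 18 measured skr genes, which encode Skp1-related adaptors of SCF ubiquitin ligases, 10 were lower by at least 2-fold and 0 higher in fed tumour animals (median log2 fold -1.18), and skr-8 (C52D10.9) had a log2 fold of -2.53. Of 35 measured fbxa genes, which encode F-box proteins that such adaptors can bind, 17 were at least 2-fold higher and 6 lower (median 0.94), and fbxa-140 (C47B2.1) had 329.9 normalized reads in fed tumour animals and 47.1 in controls. In the day 3 gld-1 RNAi library the medians over the same control, which both comparisons share, were -0.88 for skr and 1.02 for fbxa genes. Genes that are low in controls are measured only where they are high in fed tumour animals, and the reverse. This bears on the fbxa and the skr counts, and skr-9 passed the minimum mean through the control library alone. Of 16 measured gst genes, for glutathione transferases, 7 were lower by at least 2-fold and 0 higher (median -0.86). Sex determination genes had a median of -0.01 over 17 genes, which turned above 0 under 4 other scalings, with fog-3 and fog-1 at least 2-fold higher and 2 others lower.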
